A study of Mus musculus with 10 samples.

Results

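The genes described here are 40 genes of mitosis and chromosome segregation, chosen by name for their roles in cell division. The rule used no value of these libraries, but earlier results of the same data were known when it was set. They comprise mitotic cyclins and their kinase, other mitotic kinases, kinesins, kinetochore, spindle and condensin genes and 2 widely used proliferation genes. All 40 were found among the 15078 genes of the table. RNA was sequenced from stem and progenitor cells sorted from mouse bone as CD51+CD200+ cells that lacked the blood cell marker CD45, the red cell marker Ter119 and the endothelial marker CD31. For BM-MSCs (n = 3) these were mesenchymal stem cells of the marrow, and for P-SSCs (n = 3) skeletal stem cells of the periosteum, the outer membrane of the bone. Both are titled as host at steady state, and the study also uses host for mice that receive a graft. No treatment is named for them and the titles give no genotype. The study names wild-type mice for such cells where it measured Postn. Graft BM-MSCs (n = 4) were Tomato-sorted marrow cells of femurs from Postn-CreER;tdTomato mice, taken 5 months after the femurs had been transplanted under the skin of wild-type recipients. Tamoxifen was given to the recipients soon after transplantation, so that the label was induced in the grafted bone. Tomato marks cells that used the Postn promoter at induction, and their descendants. Periosteal cells use this promoter, and osteoblasts and other fibroblasts can also use it. Libraries BM-MSC 2+4 and P-SSC 2+5 each held pooled RNA of a pair of mice. The steady-state libraries were also part of another series. Genotype, tamoxifen, transplantation, the 5 months after it and origin of the library thus differ together between graft BM-MSCs and both steady-state groups. These cannot be told apart, and the labels do not give the age of the mice.

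Mitosis is entered when cyclin B accumulates on the kinase CDK1. Aurora and Polo-like kinases then build the spindle, condensins compact the chromosomes, and kinesins move and sort them. Kinetochores tie each chromosome to microtubules, and checkpoint kinases hold back the anaphase-promoting complex until every chromosome is attached. Most of these genes are transcribed in G2 and M phase and their RNA is nearly absent from resting cells. In adult bone marrow, stromal stem cells are known as largely quiescent, whereas erythroid and myeloid precursors around them divide fast.

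Between 15415421 and 25223295 reads per library were assigned to the genes of the table. Values are normalised read counts, in which a library's 1 read was worth between 0.5649 and 1.2738, so that a floor of 3 reads corresponds to values between 1.695 and 3.822. Graft libraries listed 22.6% to 38.3% of all genes at 0, against 11.5% to 19.0% in the steady-state libraries. Genes that reached 100 in the rest of their group were also missing more often there, with 8.78% of them at 0 in graft BM-MSC 2 and no more than 0.363% in any BM-MSC or P-SSC library. A mitotic gene without reads is therefore described as listed at 0, and its value is given for each library. The 4 graft libraries and P-SSC 4 had genes of high GC content at higher levels than the remaining 5 libraries. The mitotic genes had exonic GC contents of 36.5% (Ncapg) to 56.1% (Plk1). The 11 marrow stromal markers, among them Cxcl12, Lepr and Kitl, summed to 908079 to 1220685 in BM-MSCs and 739296 to 877635 in graft BM-MSCs, against 20990.4 to 38497.5 in P-SSCs. The 10 periosteal and fibroblast markers summed to 361192 to 582066 in P-SSCs, 6286 to 10139 in BM-MSCs and 1980 to 4581 in graft BM-MSCs. No chi-square comparison showed 2 libraries of a group to be alike within sampling noise.

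The mitotic genes were present throughout the BM-MSC libraries and sparse elsewhere. All 40 had reads in each of the 3 BM-MSC libraries. In P-SSCs, 15, 18 and 15 of the 40 had reads in P-SSC 1, 2+5 and 4. In graft BM-MSCs 1 to 4, 13, 9, 15 and 24 had reads. Their summed value was 6759, 6723 and 22388 in BM-MSC 1, 2+4 and 3. It was 890.2, 1157 and 812 in P-SSC 1, 2+5 and 4, and 1803, 2020.5, 2512 and 2579 in graft BM-MSC 1 to 4. The sums of the 3 groups did not overlap, with BM-MSCs highest, graft BM-MSCs between and P-SSCs lowest. Since RNA was measured in bulk, fewer cells of a type and less RNA per cell cannot be told apart.

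The low levels of grafts and P-SSCs had different shapes. Of 120 combinations of a gene and a P-SSC library, 48 had reads, and the median value of those was 28.7. Of 160 combinations in the graft libraries, 61 had reads, with a median value of 130.7. Over all tested genes, 90.0% of the values in P-SSCs and 76.2% in graft BM-MSCs were above 0. Graft values above 0 thus had a median nearer to that of BM-MSCs, where the median over all 120 combinations was 198, than to that of P-SSCs. In P-SSCs, 14 of the 40 genes were at 0 in all 3 libraries and 8 had reads in all 3. In graft BM-MSCs, 12 were at 0 in all 4 libraries, and Smc2 was the 1 gene with reads in all 4.

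**Figure D1:**
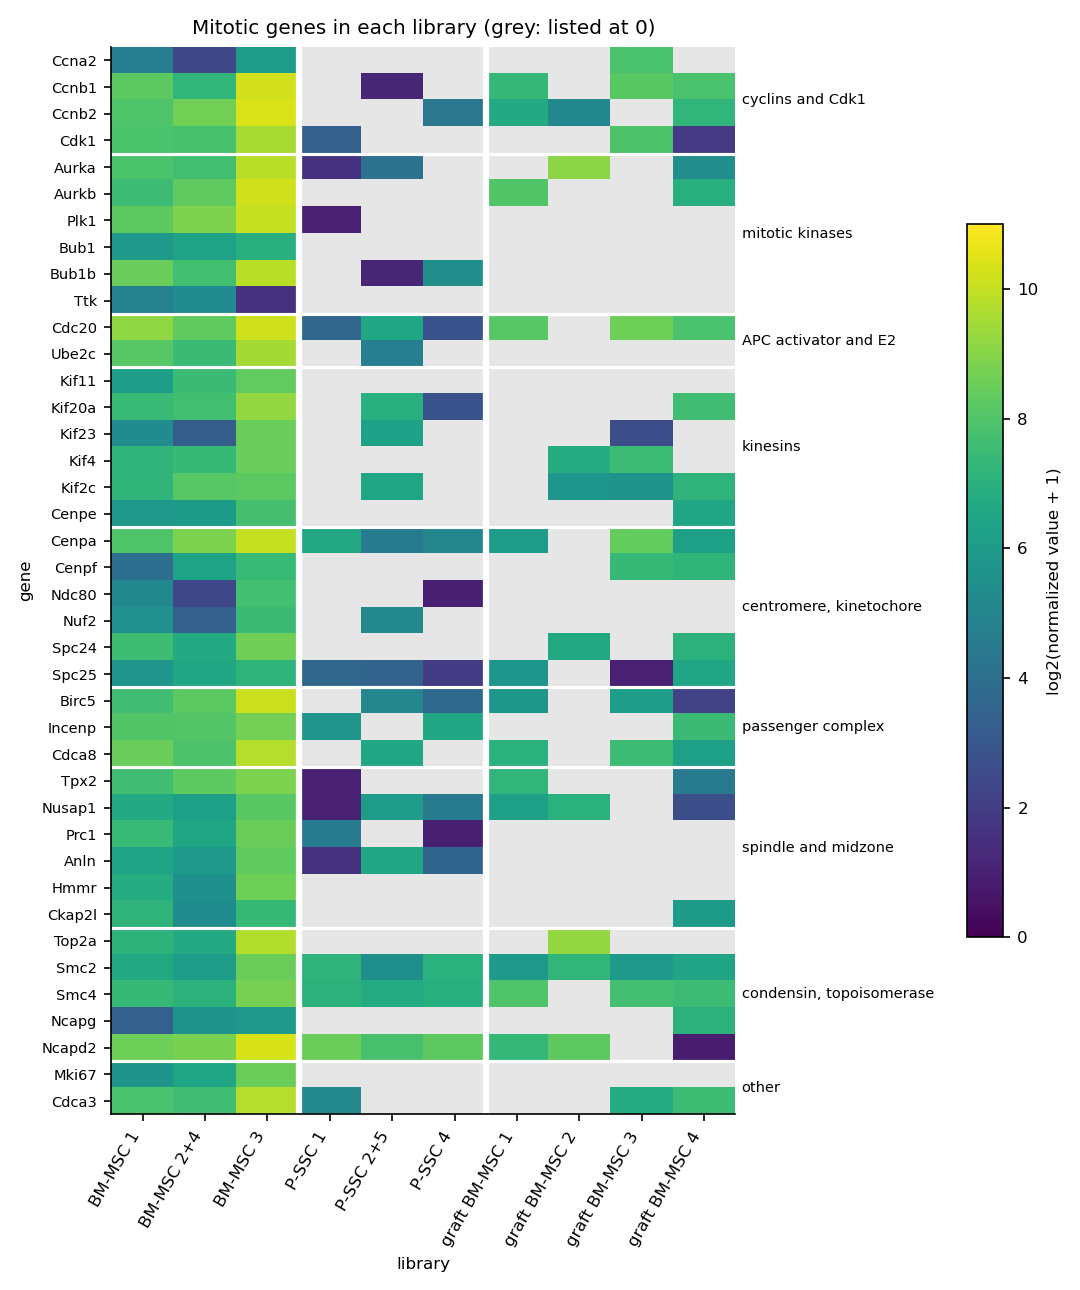
Normalized value of the 40 mitotic genes (rows, grouped by role) in the 10 libraries (columns), as log2(value + 1), with genes listed at 0 in grey. All 40 genes have reads in the 3 BM-MSC libraries, while 25, 22 and 25 are at 0 in P-SSC 1, 2+5 and 4, and 27, 31, 25 and 16 in graft BM-MSC 1 to 4.

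The promoters of these genes were searched for 2 short motifs known from cell cycle genes. These are TTTGAA, the cell cycle homology region, and CCAAT, the box bound by the factor NF-Y. RefSeq promoters of 300 bases on GRCm38.p6, starting 250 bases before the annotated start, were matched by symbol for 33 of the 40 genes. On the strand of the gene, TTTGAA was found in 21 of the 33 (63.6%), against 857 of 10572 tested genes with a promoter (8.1%) and 11.6% of all 27025 genes of the promoter table. Its reverse complement TTCAAA was found in 9 of 33 (27.3%), against 7.5% of the tested genes. CCAAT in either orientation was found in 27 of 33 (81.8%), against 42.9%. Both motifs stood together in 24 of 33 (72.7%), against 5.9%. TTTGAA on the strand of the gene began no earlier than 30 bases before the start in 18 of the 21 genes. The motifs shared no base in any promoter of a mitotic gene. The stretches of 4 genes with clear matches are shown 5′ to 3′ on the strand of the gene, with the motifs in capitals on either strand. The first 3 are the 65 bases before the start (for Prc1 the second of its annotated starts), and that of Plk1 lies just after its start. The stretch of Cdc20 is chr4:118437344-118437408 on the minus strand and that of Cdk1 is chr10:69352913-69352977 on the minus strand. The stretch of Prc1 is chr7:80294411-80294475 and that of Plk1 is chr7:122159453-122159482, both on the plus strand.
Cdc20: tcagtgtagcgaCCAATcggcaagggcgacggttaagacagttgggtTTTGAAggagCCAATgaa
Cdk1: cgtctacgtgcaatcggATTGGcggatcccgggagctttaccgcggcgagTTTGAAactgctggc
Prc1: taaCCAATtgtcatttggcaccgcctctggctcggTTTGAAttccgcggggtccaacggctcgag
Plk1: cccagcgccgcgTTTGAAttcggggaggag
A match describes these letters and does not show that a factor binds there. Among 60 further cycle-regulated mitotic genes with a promoter entry, 15 held TTTGAA on the strand of the gene, as did 3 of 20 genes of the anaphase-promoting complex and cohesin and 2 of 20 S phase genes.

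The members are described below by role, with values in the order BM-MSC 1, 2+4 and 3, then P-SSC 1, 2+5 and 4, then graft BM-MSC 1 to 4. Log2 changes are differences of group means of log2(value + 1) with their standard errors (SE), and adjusted p values are from limma with Benjamini-Hochberg adjustment over the 13644 genes tested. A gene counts as called at an adjusted p under 0.05. Genes were tested at a mean value of at least 10 over all libraries. Bub1, Bub1b, Ckap2l, Hmmr, Kif11, Mki67, Ndc80, Nuf2, Plk1, Prc1 and Ube2c reached this filter only through BM-MSCs. For these, the p values against BM-MSCs describe the values and are no independent support, since high BM-MSC values were the condition for testing. Where a group is at 0, the log2 change depends on the added 1 and is no bound. The fold of the mean values is then given against the floor of 3 reads per library. This floor covers counting error only. Graft libraries also listed genes at 0 that were high in the rest of their group. A fold given as "at least" is therefore a bound for counting error and not for zeros of that kind.

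Cyclin B1 and cyclin B2 activate CDK1 at the entry into mitosis, and cyclin A2 acts before them. Ccnb1 was at 303, 151 and 1198 in BM-MSCs, at 0, 1.27 and 0 in P-SSCs, and at 160.4, 0, 286 and 229.6 in graft BM-MSCs. It was lower in P-SSCs than in BM-MSCs (log2 change -8.18 ± 2.08 (SE), adjusted p = 0.0329). The graft values overlapped with BM-MSCs, and the log2 change of -2.74 ± 1.95 (SE) did not pass (adjusted p = 0.404). Ccnb2, at 252, 398 and 1334 in BM-MSCs, was at 0, 0 and 19.4 in P-SSCs and also passed there. It was at 106, 33.7, 0 and 149 in graft BM-MSCs, below every BM-MSC library but not called. Cdk1, the kinase itself, was at 237, 219 and 755 in BM-MSCs, at 9.35, 0 and 0 in P-SSCs, and at 0, 0, 246 and 2.59 in graft BM-MSCs. Its changes of -7.29 ± 2.10 (SE, adjusted p = 0.058) in P-SSCs and -5.97 ± 1.96 (SE, adjusted p = 0.0954) in graft BM-MSCs did not pass. Thus Ccnb1 had over 100 in graft BM-MSC 1 and 4, where Cdk1 was at 0 or at 3 reads. Ccna2 was low in BM-MSCs (25.1, 4.22 and 65.1) and at 0 in the other libraries except for 226 in graft BM-MSC 3.

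Plk1 encodes the Polo-like kinase that drives centrosome maturation and spindle assembly (chromosome 7, 122159439 to 122169873 on GRCm38). It was at 306, 474 and 1045 in BM-MSCs, had 1 read (1.04) in P-SSC 1 and was at 0 in the other 6 libraries. Its mean in BM-MSCs was at least 247-fold above that of graft BM-MSCs. Against the 1 read of P-SSCs the ratio was 1757, with a 95% counting interval of 299 to 65893. The log2 change was -8.72 ± 0.99 (SE, adjusted p = 0.000306) in P-SSCs and -9.06 ± 0.92 (SE, adjusted p = 0.00149) in graft BM-MSCs, the largest drop of a mitotic gene in both comparisons. Bub1b, the spindle checkpoint protein BubR1, was at 354, 200.4 and 919 in BM-MSCs, at 0, 1.27 and 41.7 in P-SSCs and at 0 in all 4 graft libraries. It was called in both comparisons, with -6.46 ± 1.46 (SE, adjusted p = 0.0177) and -8.66 ± 1.37 (SE, adjusted p = 0.00546). Its partner kinase Bub1, at 59.5, 79.1 and 116 in BM-MSCs, was at 0 in all 7 other libraries and was called in both, with -6.37 ± 0.73 (SE, adjusted p = 0.00182) in graft BM-MSCs. Plk1, Bub1 and Bub1b did not overlap between BM-MSCs and the other groups.

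Both Aurora kinases had reads in some graft libraries and not in others. Aurkb, the Aurora kinase of the centromere and midzone, was at 188, 317 and 1172 in BM-MSCs, at 0 in all P-SSCs, and at 259, 0, 0 and 117 in graft BM-MSCs. It was called in P-SSCs, with -8.69 ± 2.22 (SE, adjusted p = 0.0335), and not in graft BM-MSCs (-4.97 ± 2.07 (SE), adjusted p = 0.167). Aurka, the Aurora kinase of the spindle poles, was at 238, 202 and 939 in BM-MSCs, at 2.08, 16.6 and 0 in P-SSCs and at 0, 539, 0 and 41.4 in graft BM-MSCs. The single graft library with a high Aurka value, graft BM-MSC 2, was within the range of BM-MSCs and was also the one with a high Top2a value. Ttk, which encodes the checkpoint kinase MPS1, was at 27.1, 39.0 and 1.97 in BM-MSCs and at 0 elsewhere. It was the 1 gene of the 40 with a mean under 10 over all libraries and was not tested, and the 1 gene that was not highest in BM-MSC 3.

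Cdc20 and Ube2c act with the anaphase-promoting complex, the first as its activator and the second as the enzyme that supplies ubiquitin. Cdc20 (chromosome 4, 118432901 to 118437352) was at 583, 315 and 1168 in BM-MSCs, at 11.4, 86.6 and 5.82 in P-SSCs and at 280.2, 0, 379 and 225 in graft BM-MSCs. It was among the mitotic genes with reads in most libraries and was not called. Ube2c was at 284, 181 and 725 in BM-MSCs, at 0, 25.5 and 0 in P-SSCs and at 0 in all 4 grafts, at least 161-fold below the BM-MSC mean. It was called in P-SSCs and, with -8.39 ± 1.31 (SE, adjusted p = 0.00512), in graft BM-MSCs. The 2 genes thus parted in the grafts, where Cdc20 had reads in 3 libraries and Ube2c in none.

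Among the kinesins, Kif11 encodes Eg5, the motor that separates the spindle poles. It was at 68.9, 180.3 and 324 in BM-MSCs and at 0 in all 7 other libraries, which puts its BM-MSC mean at least 58.2-fold above P-SSCs and at least 77.7-fold above the grafts. Its log2 change was -7.32 ± 0.91 (SE, adjusted p = 0.000502) in P-SSCs and -7.32 ± 0.85 (SE, adjusted p = 0.00182) in graft BM-MSCs. Kif4, a chromosome-bound kinesin, was at 142, 165 and 360.0 in BM-MSCs, at 0 in P-SSCs, and at 0, 112, 185 and 0 in graft BM-MSCs. It passed in P-SSCs alone of both comparisons with BM-MSCs (-7.68 ± 2.10 (SE), adjusted p = 0.047). Cenpe, the kinesin of the kinetochore, was at 57.4, 63.3 and 214 in BM-MSCs and at 0 in all others except graft BM-MSC 4 (88.0), and was also called in P-SSCs. Kif20a, Kif23 and Kif2c, which act in the midzone and at centromeres, were not called in any comparison. Each had reads in a P-SSC library, with the highest values in P-SSC 2+5 (126, 77.7 and 87.9). Kif23 reached at most 5.04 in a graft library, whereas Kif20a was at 199 in graft BM-MSC 4 and Kif2c at 54.0, 49.4 and 142 in graft BM-MSC 2 to 4.

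The outer kinetochore is built around the Ndc80 complex, whose 4 subunits Ndc80, Nuf2, Spc24 and Spc25 are all among the 40. Ndc80 was at 34.5, 4.22 and 208 in BM-MSCs, had 1 read in P-SSC 4 and was at 0 in the grafts. It was called in both comparisons, with -5.08 ± 1.13 (SE, adjusted p = 0.0248) in graft BM-MSCs. Nuf2, its dimer partner, was at 46.0, 9.49 and 181 in BM-MSCs, at 35.7 in P-SSC 2+5 and at 0 in the other 6 libraries, and was called in graft BM-MSCs (-5.49 ± 1.44 (SE), adjusted p = 0.0446). The second dimer differed from the first in the grafts. Spc24, at 192, 104 and 395 in BM-MSCs and at 0 in P-SSCs (-7.65 ± 2.04 (SE), adjusted p = 0.042), was at 101 and 133 in graft BM-MSC 2 and 4. Spc25, at 52.2, 92.8 and 143 in BM-MSCs, had reads in all P-SSC libraries (11.4, 10.2 and 2.91) and in graft BM-MSC 1, 3 and 4 (54.2, 1.01 and 89.8). Graft libraries without Ndc80 and Nuf2 therefore held reads of Spc24 or Spc25 in each case, although in graft BM-MSC 3 this was 1 read of Spc25.

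At the centromere, Cenpa encodes the histone H3 variant that marks it. Cenpa was at 246, 451 and 1060.2 in BM-MSCs, at 99.7, 21.7 and 32.0 in P-SSCs and at 65.5, 0, 337 and 75.1 in graft BM-MSCs, and was not called. Cenpf, a large kinetochore protein, was at 14.6, 83.3 and 173 in BM-MSCs, at 0 in P-SSCs and at 0, 0, 166 and 146 in graft BM-MSCs. Its changes of -5.93 ± 2.18 (SE, adjusted p = 0.143) and -2.29 ± 2.04 (SE, adjusted p = 0.507) did not pass.

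The chromosomal passenger complex joins Aurora B to survivin (Birc5), Incenp and borealin (Cdca8). Birc5 was at 196, 302 and 1127 in BM-MSCs, at 0, 33.1 and 12.6 in P-SSCs and at 54.8, 0, 68.5 and 3.45 in graft BM-MSCs. It lay below every BM-MSC library in both groups, but its changes of -5.72 ± 1.96 (SE, adjusted p = 0.115) and -5.15 ± 1.83 (SE, adjusted p = 0.116) did not pass. Cdca8 was at 354, 239 and 884 in BM-MSCs, at 95.5 in P-SSC 2+5 only among P-SSCs, and at 129, 0, 185 and 73.4 in graft BM-MSCs. Incenp was at 256, 267 and 411 in BM-MSCs, at 53.0, 0 and 96.9 in P-SSCs and at 0 in the grafts except for 181 in graft BM-MSC 4. Graft BM-MSC 4 was the 1 graft library with reads of all 4 subunits, and graft BM-MSC 2 had none of them.

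Among the spindle and midzone genes, Tpx2 activates Aurora A on the spindle. It was at 195, 311 and 448 in BM-MSCs, at 1.04, 0 and 0 in P-SSCs and at 148, 0, 0 and 21.6 in graft BM-MSCs, and was called in P-SSCs (-7.89 ± 1.89 (SE), adjusted p = 0.024). Hmmr, a spindle pole protein, was at 111, 45.4 and 377 in BM-MSCs and at 0 in all 7 other libraries. It was called in both comparisons, with -6.97 ± 0.90 (SE, adjusted p = 0.0023) in graft BM-MSCs. Prc1, which bundles microtubules of the midzone, was at 169, 86.5 and 368 in BM-MSCs, at 21.8, 0 and 0.97 in P-SSCs and at 0 in the grafts (-7.46 ± 1.21 (SE), adjusted p = 0.00612). Anln encodes anillin of the contractile ring and was the 1 mitotic gene whose graft values all lay below those of P-SSCs. It was at 83.5, 61.2 and 314 in BM-MSCs, at 2.08, 95.5 and 10.7 in P-SSCs and at 0 in all grafts. It was called against BM-MSCs (-6.89 ± 1.30 (SE), adjusted p = 0.0123) and not against P-SSCs (-3.92 ± 1.30 (SE), adjusted p = 0.0618). Ckap2l was called in P-SSCs, where it was at 0, and had reads in graft BM-MSC 4 alone (62.1). Nusap1, a spindle protein, was not called and had reads in all P-SSC libraries (1.04, 64.97 and 22.3) and 3 grafts (75.7, 131 and 5.18).

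Of the condensin genes, 3 had reads in every P-SSC library. Smc2 and Smc4 encode the ATPase pair shared by both condensin complexes, and Ncapd2 and Ncapg encode subunits of condensin I. Smc2 was at 102, 67.5 and 371 in BM-MSCs, at 143, 43.3 and 129.9 in P-SSCs and at 60.5, 151, 59.4 and 83.7 in graft BM-MSCs, so that all groups overlapped. Smc4 was at 166, 133 and 434 in BM-MSCs, at 132, 109.5 and 120.2 in P-SSCs and at 253, 0, 209 and 186 in graft BM-MSCs. Its changes of -0.82 ± 1.87 (SE, adjusted p = 0.979) in P-SSCs and -1.93 ± 1.75 (SE, adjusted p = 0.515) in graft BM-MSCs were within their errors. Without graft BM-MSC 2, its log2 change in graft BM-MSCs was 0.012. Ncapd2 was at 381, 434 and 1275 in BM-MSCs, at 366, 224 and 310.2 in P-SSCs and at 158, 310.3, 0 and 0.86 in graft BM-MSCs. These 3 genes made up most of the sum in P-SSC 1 and 4, and without them the remaining 37 genes summed to 249 to 779.6 in P-SSCs against 6088 to 20307 in BM-MSCs. Ncapg, by contrast, was at 9.40, 49.6 and 59.2 in BM-MSCs, at 0 in P-SSCs and at 134 in graft BM-MSC 4 alone. Top2a, the topoisomerase that disentangles sister chromatids, was at 139, 105 and 857 in BM-MSCs and at 0 elsewhere except for 589 in graft BM-MSC 2. Its changes of -7.87 ± 2.32 (SE, adjusted p = 0.0633) and -5.57 ± 2.17 (SE, adjusted p = 0.142) did not pass.

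Mki67 encodes the Ki-67 protein that coats mitotic chromosomes and is the usual stain for cycling cells (chromosome 7, 135689784 to 135716361). It was at 51.2, 86.5 and 369.9 in BM-MSCs and at 0 in all 7 other libraries. The BM-MSC mean was at least 51.5-fold above P-SSCs and at least 68.8-fold above graft BM-MSCs. Its log2 change was -6.90 ± 0.95 (SE, adjusted p = 0.000849) in P-SSCs and -6.90 ± 0.89 (SE, adjusted p = 0.00226) in graft BM-MSCs. Cdca3, a trigger of mitotic entry, was at 229.8, 196 and 881 in BM-MSCs, at 35.3 in P-SSC 1, and at 109 and 191 in graft BM-MSC 3 and 4, and was not called.

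The comparison of P-SSCs with BM-MSCs asks how the stem cells of periosteum and marrow differ at steady state. Of the 39 mitotic genes tested, 17 were called lower in P-SSCs and none higher, while 4.58% of all 13644 tested genes were called lower. The median log2 change was -6.37, against 0.00 over all tested genes. For 35 of the 39, every P-SSC library lay below every BM-MSC library, which held for 15.8% of all tested genes. Over all 40 genes, with those at 0 set to the floor, the median ratio of BM-MSC to P-SSC means was 30.7. The ratio was lowest for Smc2 (1.71) and highest for Plk1. These counts lean on the filter on low values. Of the 40 genes, 28 would have reached it in the 7 libraries outside BM-MSCs, and 10 of the 17 called genes are not among those 28, so that they were tested only because BM-MSCs were high. Among the 28, 7 were called lower (Aurkb, Ccnb1, Ccnb2, Cenpe, Kif4, Spc24 and Tpx2), against 3.68% of the 13184 genes that met the same condition. The median log2 change of the 28 was -5.71, against 0.04 over those 13184 genes. The count of 17 was 6 without BM-MSC 3, 6 without P-SSC 1 10 without BM-MSC 2+4, and 8 without BM-MSC 1, without P-SSC 2+5 or within the libraries of lower GC-rich values (without P-SSC 4). edgeR on the recovered reads called 2 of the 39 lower, Ccnb1 and Plk1 (2.58% of all tested genes), and DESeq2 called 15 (5.83%), of which 10 were among the 17.

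Setting graft BM-MSCs against steady-state BM-MSCs asks how marrow stromal cells with the Postn-driven label in a transplanted bone differ from those at steady state. Of the 39 genes, 11 were called lower in graft BM-MSCs and none higher, while 5.06% of all tested genes were called lower. The 11 are Anln, Bub1, Bub1b, Hmmr, Kif11, Mki67, Ndc80, Nuf2, Plk1, Prc1 and Ube2c, which were at 0 in all 4 graft libraries, and 9 of them were also called in P-SSCs, a comparison that shares the BM-MSC libraries. Of the 11, 10 reached the filter only through BM-MSCs, and among the 28 genes that reach it outside BM-MSCs Anln alone was called, against 3.72% of all such genes. The count of 11 is therefore a description of genes that are at 0 in the grafts. The median log2 change of the 39 was -5.03, against -0.53 over all tested genes. Among the 28 genes it was -4.22, against -0.47 over all genes that met the same condition. In edgeR and DESeq2 the median of the 39 was smaller, at -2.58 and -2.60, against -0.052 and -0.043 over all tested genes. Graft values lay below all BM-MSC values for 20 of the 39, a pattern shown by 14.7% of all tested genes. The 20 include the 10 called genes that reached the filter only through BM-MSCs, so this count leans on the filter too. The median ratio of BM-MSC to graft means over the 40 genes was 6.24, with those at 0 set to the floor, and it was below 1 for Ccna2 (0.56). The counts without 1 library ranged from 9 to 15. edgeR called 1 of the 39 lower, Plk1 (1.59% of all tested genes), and DESeq2 called the same 11 (7.54%). Library GC behaviour differs between all graft and all BM-MSC libraries and cannot be told apart from the group. With it as a covariate, which then rests on P-SSC 4, the graft count was 1.

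Setting graft BM-MSCs against P-SSCs asks whether labelled cells in the grafted marrow still resemble the periosteal cells. None of the 39 mitotic genes was called in limma, and 2 had an unadjusted p under 0.05, Ccnb1 (higher, 5.44 ± 1.95 (SE), adjusted p = 0.0794) and Anln (lower, given above). Of all tested genes, 18.1% were called in either direction. The median log2 change of the 39 was 0.30, against -0.47 over all tested genes, and 14 of the 39 were below 0. Aurkb (3.72 ± 2.07 (SE), adjusted p = 0.243), Cenpf (3.65 ± 2.04 (SE), adjusted p = 0.245) and Top2a (2.30 ± 2.17 (SE), adjusted p = 0.493) had higher graft means, and Bub1b a lower one (-2.20 ± 1.37 (SE), adjusted p = 0.294). For Cdk1 (1.32 ± 1.96), Birc5 (0.57 ± 1.83), Plk1 (-0.34 ± 0.92) and Smc4 (-1.11 ± 1.75), the change was smaller than its SE, and Mki67 and Kif11 were at 0 in both groups. edgeR called Anln lower and Ccnb1 higher (6.90% of all tested genes lower and 4.32% higher). DESeq2 called 4 lower and 8 higher (12.5% and 8.84% of all tested genes). The 3 tools thus differed in this comparison, and errors of 0.73 to 2.24 on the log2 scale left changes of several fold undetectable in limma.

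**Figure D2:**
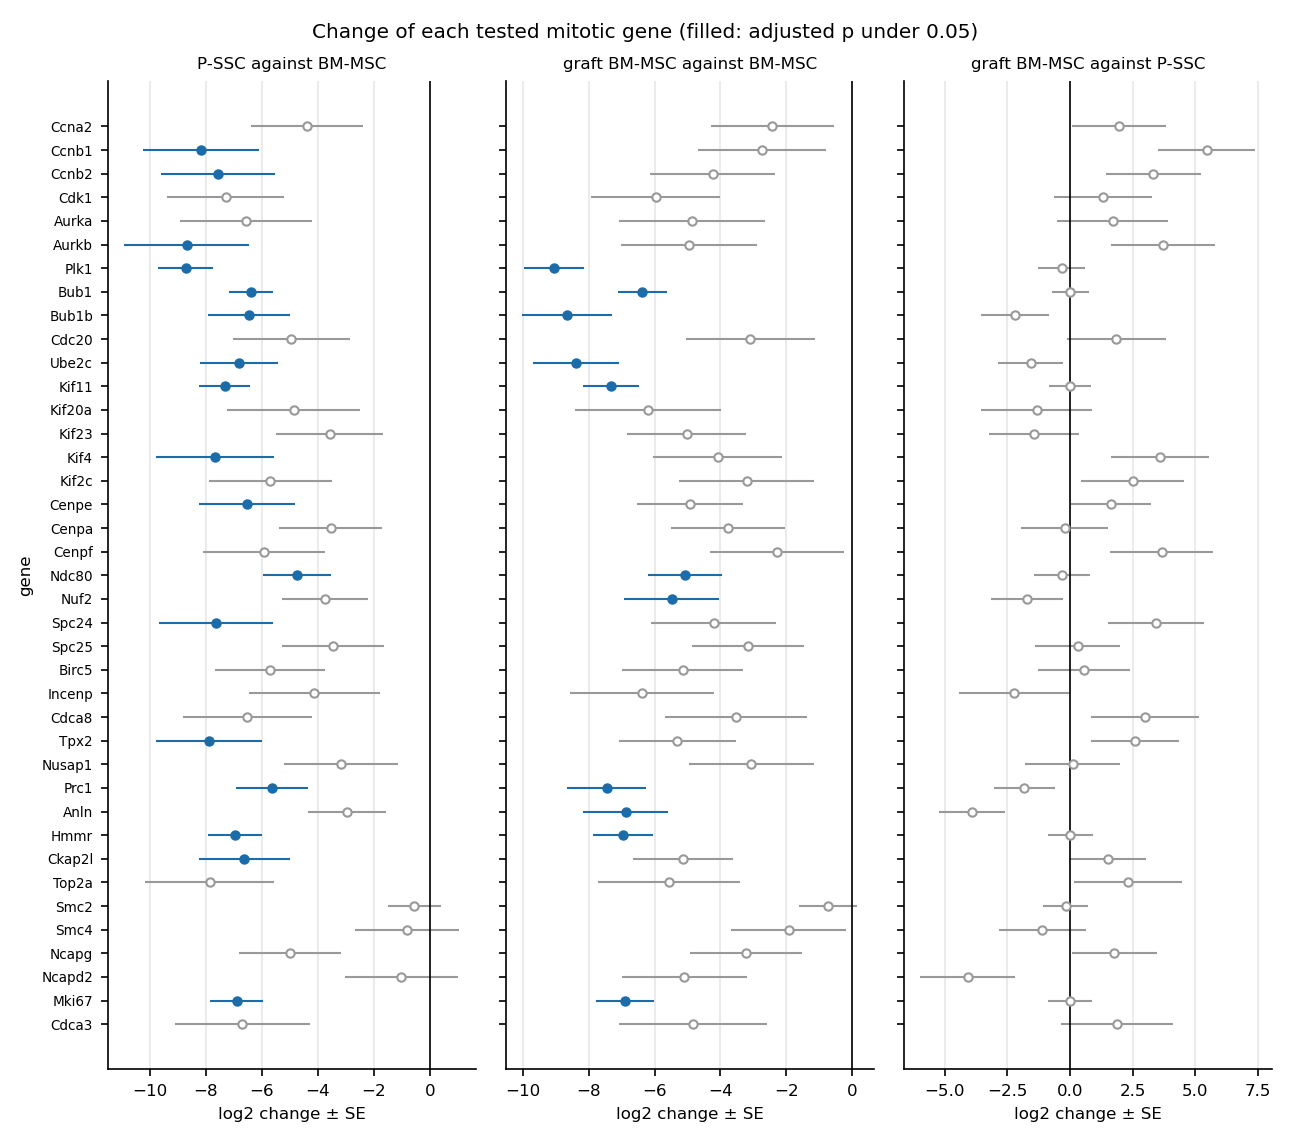
Log2 change (x axis, with its SE as bars) of each of the 39 tested mitotic genes (y axis) in the 3 comparisons, with filled points for genes at an adjusted p under 0.05. All 39 lie below 0 in both comparisons with BM-MSCs, with 17 and 11 filled, and they scatter around 0 between graft BM-MSCs and P-SSCs, with none filled.

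The BM-MSC libraries differed among themselves. BM-MSC 3 had the highest value for 39 of the 40 genes, and for all 39 tested, whereas it was highest of the 3 for 31.8% of all tested genes. Across the 40, its value over the mean of BM-MSC 1 and 2+4 had a median of 3.24 and ranged from 0.06 (Ttk) to 15.3 (Kif23). The same ratio had a median of 0.95 over all tested genes. The reads of the 40 genes made up 373.6, 328.5 and 1211 per 1000000 reads in BM-MSC 1, 2+4 and 3. The 15 erythroid markers, such as the hemoglobins and Alas2, were also all highest in BM-MSC 3, with a median ratio of 4.71. S phase genes were highest there for 23 of 24, with a median ratio of 2.53. Further mitotic genes that are regulated through the cycle were highest there for 48 of 66 (72.7%), with a median ratio of 1.92. Shares and medians were lower than those of the 40 genes for B cell (4 of 6, median 2.14) and neutrophil markers (7 of 14, median 1.84). They were also lower for pan-blood (6 of 12, median 1.34), macrophage (2 of 10, median 0.53) and marrow stromal markers (1 of 11, median 0.90). The neutrophil markers were split. Mpo and Ctsg were at 0 in BM-MSC 3, and Elane, Prtn3 and Mmp8 had ratios of 0.1, 0.32 and 0.68. The other neutrophil markers ranged from 1.41 (Ltf) to 3.34 (Fcnb).

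**Figure D3:**
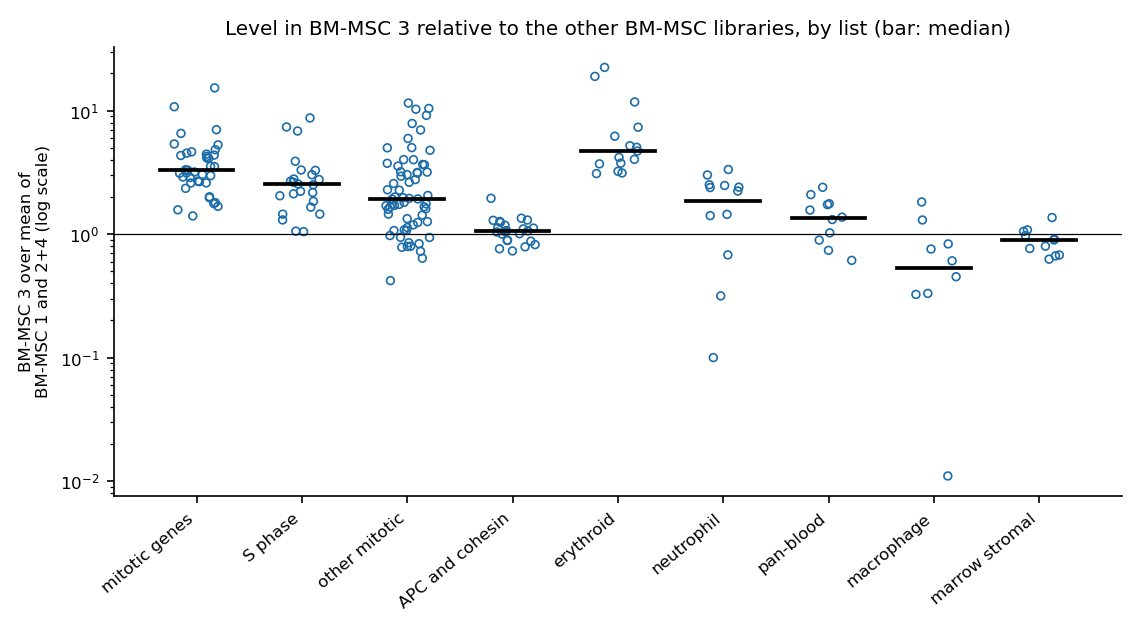
Value in BM-MSC 3 divided by the mean of BM-MSC 1 and BM-MSC 2+4 (y axis, log scale) for each tested gene (circles) of 9 lists (x axis), with the median as a bar. Mitotic, S phase and erythroid genes have medians of 3.30, 2.53 and 4.71, whereas marrow stromal markers lie near 1, and genes at 0 in BM-MSC 3 are not drawn.

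Mean sums of erythroid, neutrophil, pan-blood and macrophage markers followed the mitotic order of the groups, although the sort excluded CD45 and Ter119 positive cells. Those of B cell, T and NK cell and megakaryocyte markers did not follow it. The erythroid markers summed to 72781, 61712 and 223245 in BM-MSCs, to 223 to 1410.4 in P-SSCs, and to 1720, 27986, 7723 and 11104 in graft BM-MSC 1 to 4. In BM-MSCs, 14 to 15 of the 15 had reads, in P-SSCs 3 to 6 and in graft BM-MSCs 7 to 8. Slc4a1, Epb42, Rhag and Kel, genes of the red cell membrane, were at 0 in all P-SSC and graft libraries. Leaving out the hemoglobins, the other 11 markers summed to 3425.5 to 22010 in BM-MSCs, 0 to 21.8 in P-SSCs and 237 to 993 in graft BM-MSCs. For every 1000 units of erythroid marker value, the mitotic genes had 92.9, 109 and 100.3 in BM-MSC 1, 2+4 and 3. Against the 11 erythroid markers other than hemoglobins, the same ratio was 1973, 1693 and 1017, so that it was near constant only with the hemoglobins. In the other groups the ratio to all erythroid markers was 576 to 3987 in P-SSCs and 1049, 72.2, 325 and 232 in graft BM-MSC 1 to 4.

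White cell markers followed a different order in the grafts. The 14 neutrophil markers, such as Ngp, Ltf and S100a8, summed to 33460 to 100972 in BM-MSCs and 33.9 to 287 in P-SSCs. In graft BM-MSC 1 to 4 they summed to 5959, 14767, 120292 and 8650, so that graft BM-MSC 3 exceeded all BM-MSC libraries while its mitotic sum was 2512. The 12 pan-blood markers summed to 4193 to 7210 in BM-MSCs, 12.6 to 194 in P-SSCs and 1545 to 6733 in graft BM-MSCs. Ptprc, which encodes CD45, was at 0 in all P-SSC libraries and in graft BM-MSC 1 and 2, and Vav1 was at 0 in all libraries but BM-MSC 1 and 2+4. Between P-SSCs and BM-MSCs, 14 of the 15 erythroid, 11 of the 14 neutrophil and 5 of the 12 pan-blood markers were called lower, against 4.58% of all tested genes. In the same order, edgeR called 7, 7 and 2 lower (2.58% of all tested genes) and DESeq2 13, 12 and 6 (5.83%). Some of these markers, such as Slc4a1, Epb42, Rhag and Kel, reached the filter on low values only through BM-MSCs. Between graft BM-MSCs and BM-MSCs, 8, 0 and 2 of the erythroid, neutrophil and pan-blood markers were called lower, against 5.06% of all tested genes. edgeR called 2, 0 and 0 lower (1.59% of all tested genes) and DESeq2 10, 0 and 2 (7.54%). Of the neutrophil markers, 4 had an unadjusted p under 0.05 in limma. Macrophage markers summed to 5688 to 18315, 744 to 3169 and 1728 to 15265, and B cell markers to 374 to 1287, 213 to 857 and 112 to 340.1, in BM-MSCs, P-SSCs and graft BM-MSCs in that order. In the same order, T and NK cell markers summed to 0 to 284, 0 to 52.2 and 5.0 to 286.5, and megakaryocyte markers to 274 to 1918, 204 to 669 and 74.2 to 612. Endothelial markers summed to 217 to 353, 3275 to 6871 and 0 to 148, and osteoclast markers to 6941 to 9211, 5402 to 8452 and 6600.2 to 10765. The endothelial sum of P-SSCs was nearly all Tek (6869, 4820.2 and 3254), and Emcn, Stab2 and Tie1 were at 0 in all P-SSC libraries. The part of blood cell RNA in the mitotic gene values was not tested.

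**Figure D4:**
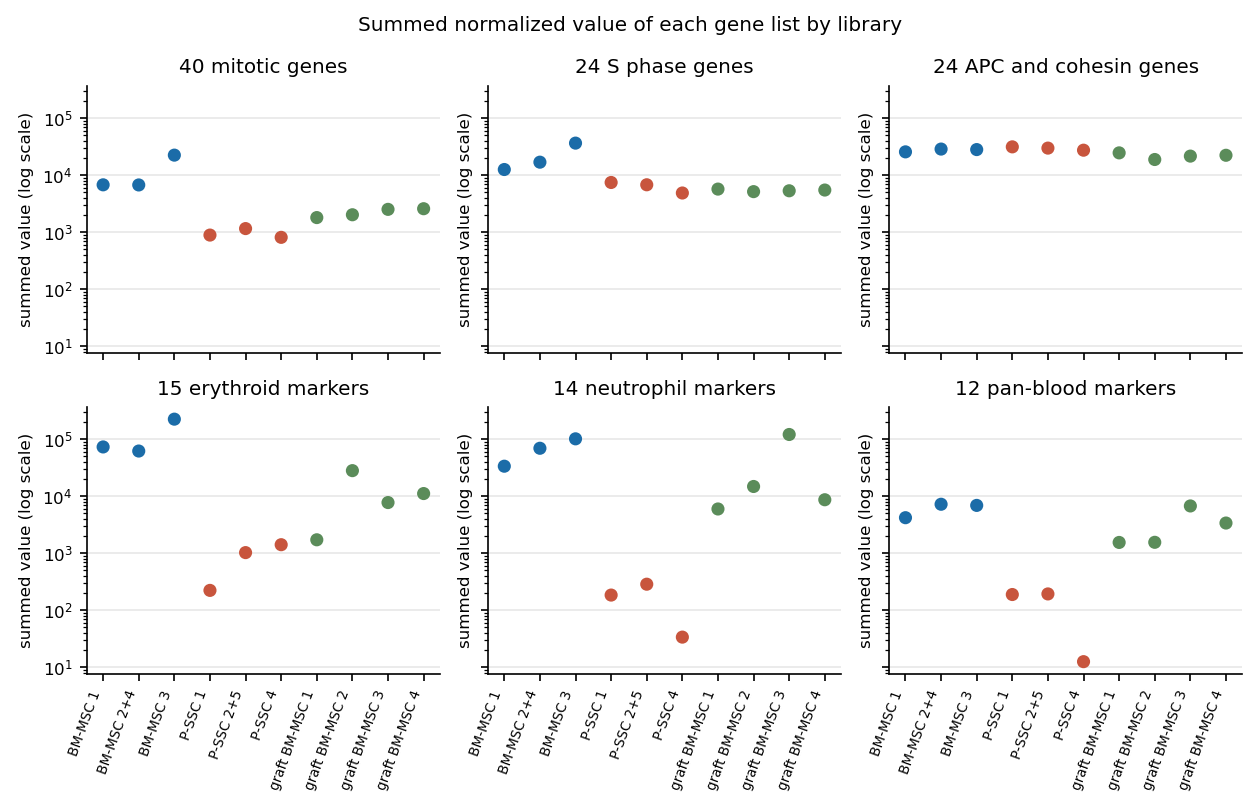
Summed normalized value (y axis, log scale) of 6 gene lists in the 10 libraries (x axis), with BM-MSCs in blue, P-SSCs in red and graft BM-MSCs in green. The mitotic sum of 22388 and the erythroid sum of 223245 are both highest in BM-MSC 3, whereas the anaphase-promoting complex and cohesin sum stays between 18769 and 31264 in all libraries.

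Other genes of the cell cycle were compared from the same fit. Among 66 tested further mitotic genes that are regulated through the cycle, 11 (16.7%) were called lower in P-SSCs and 20 (30.3%) in graft BM-MSCs than in BM-MSCs, against 4.58% and 5.06% of all tested genes, with median log2 changes of -2.91 and -3.80. The counts differed by tool. edgeR called 1 and 3 of them lower (2.58% and 1.59% of all tested genes). DESeq2 called 12 and 21 lower (5.83% and 7.54%) and 1 higher in each comparison. Spag5, the spindle protein astrin, was at 91.9, 110 and 323 in BM-MSCs and at 0 in all 7 other libraries (-7.22 ± 0.88 (SE), adjusted p = 0.000456 in P-SSCs). Pbk, a mitotic kinase, was at 136, 79.1 and 194 in BM-MSCs and at 0 elsewhere except for 1 read in graft BM-MSC 4. Both Spag5 and Pbk reached the filter on low values only through BM-MSCs. Kif22 and Cenpm, a chromosome-bound kinesin and a centromere protein, were among those called in graft BM-MSCs, with log2 changes of -7.95 ± 1.53 (SE, adjusted p = 0.0131) and -7.53 ± 1.22 (SE, adjusted p = 0.006). Of this list 3 genes were called lower in graft BM-MSCs than in P-SSCs, namely Espl1, Kpna2 and Tubb5, a share of 4.55% that is below the 11.98% of all tested genes. Espl1, which encodes separase, was at 155, 127 and 174 in P-SSCs and at 0 in all 4 grafts (-7.25 ± 1.12 (SE), adjusted p = 0.00123).

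S phase genes act in DNA replication before mitosis. Of 24 tested, 1 was called lower in P-SSCs (Tk1, thymidine kinase, -5.42 ± 1.28 (SE), adjusted p = 0.0227) and 6 in graft BM-MSCs, with medians of -2.30 and -3.02. The 1 call is 4.17% of the list, near the 4.58% of all tested genes, and 6 of 24 is above the 5.06% of all tested genes. Cdc6, a factor that licenses replication origins, was at 207, 296 and 640.1 in BM-MSCs, at 27.0, 35.7 and 53.3 in P-SSCs and at 0 in all 4 grafts. Cdc45, a part of the replicative helicase, was at 35.5, 72.8 and 472 in BM-MSCs, at 110.1, 239 and 108 in P-SSCs and at 0 in the grafts. Both were called lower in graft BM-MSCs than in P-SSCs (Cdc45 -7.16 ± 1.18 (SE), adjusted p = 0.00193). P-SSCs thus had reads of Cdc6 and Cdc45 in all 3 libraries, while 14 mitotic genes were at 0 in all 3.

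The subunits of the anaphase-promoting complex and of cohesin, which are made throughout the cycle, gave a contrast to the 40 genes. None of 24 was called in P-SSCs against BM-MSCs in limma, edgeR or DESeq2, and 0 had an unadjusted p under 0.05 in limma, with a median log2 change of 0.08. In graft BM-MSCs 2 were called lower than in BM-MSCs, Anapc2 (-1.16 ± 0.21 (SE), adjusted p = 0.0108) and Anapc5 (-1.07 ± 0.27 (SE), adjusted p = 0.0387), with a median of -0.31. This is 8.33% of the list, against 5.06% of all tested genes. Against P-SSCs, 3 (12.5%) were called lower in graft BM-MSCs, near the 11.98% of all tested genes, and Fzr1, the activator that keeps the complex on in G1, was called higher (2.77 ± 0.84 (SE), adjusted p = 0.0445). Fzr1 was at 143, 57.3 and 1116 in P-SSC 1, 2+5 and 4 and at 842 to 2250 in graft BM-MSCs, so that P-SSC 4, which shared the GC behaviour of the grafts, lay within their range.

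**Figure D5:**
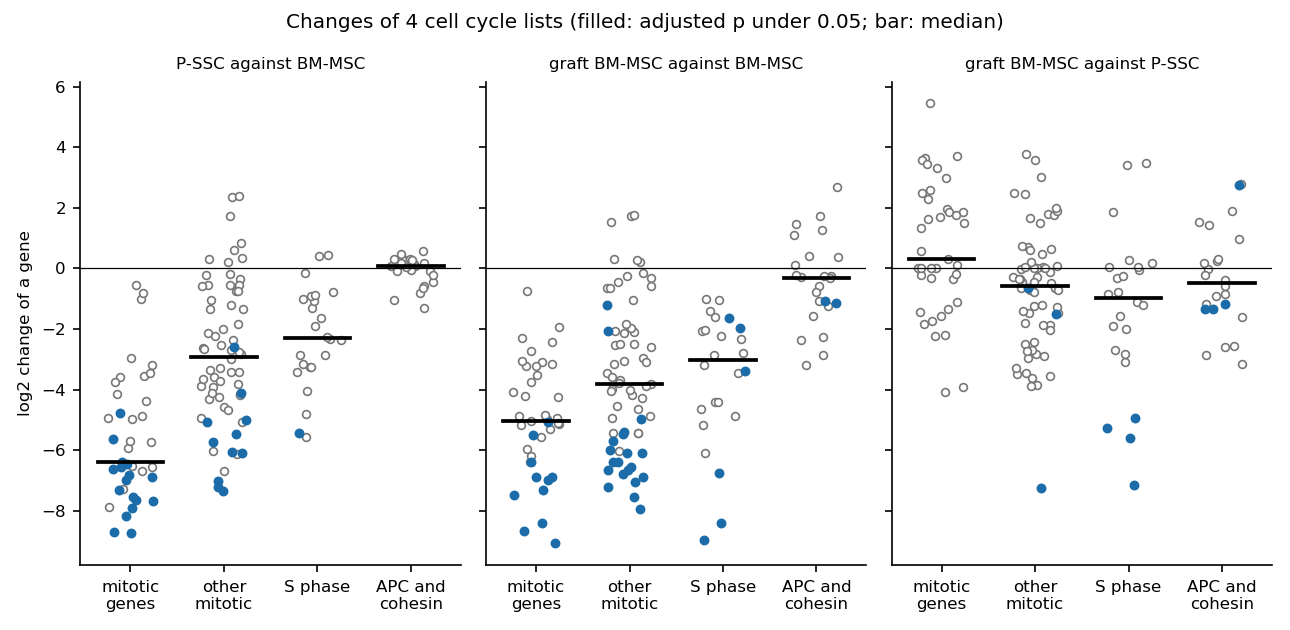
Log2 change (y axis) of each tested gene of 4 cell cycle lists (x axis) in the 3 comparisons, with filled points at an adjusted p under 0.05 and bars at the medians. Against BM-MSCs, the mitotic genes have medians of -6.37 and -5.03, and the anaphase-promoting complex and cohesin genes lie near 0 with medians of 0.08 and -0.31.

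Levels of different genes were compared per kilobase of exon. In BM-MSCs, Ccnb2 was highest with a mean value of 432 ± 384 (SD, n = 3) per kilobase, followed by Cdc20 with 369 ± 233 and Plk1 with 277 ± 176. These neighbours in the order did not differ beyond their spread. The lowest were Cenpf with 5.84 ± 5.13, Ncapg with 5.57 ± 3.74 and Ttk with 4.62 ± 3.85. In P-SSCs the order began with the condensin genes, Ncapd2 with 47.9 ± 11.4 (SD, n = 3), Smc4 with 23.1 ± 2.15 and Smc2 with 19.3 ± 9.91. In graft BM-MSCs it began with Cdc20 at 118 ± 85.9 (SD, n = 4) per kilobase, ahead of Aurka with 57.3 ± 104, whose value rests on graft BM-MSC 2, and Ccnb2 with 47.1 ± 44.2.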

How the data were processed

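Messenger RNA of sorted cells was sequenced in 10 libraries of 15415421 to 25223295 assigned reads. The deposited table holds normalised read counts, a signal in which the authors divided each gene's reads by a size factor of the library. Submitters' notes name STAR 2.5, featureCounts, Subread 1.4.6, DESeq2 1.26.0 and GRCm39, whereas the methods of the study name GRCm38, and the strand setting is not given in the sources used here. Every value was a whole multiple of 1 step per library (tolerance 0.1 reads, 100% whole), which recovered the reads. The gene with the fewest had 22 reads over all libraries. No column was left unassigned.

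Values were analysed as log2(value + 1), and the added 1 understates changes between low values above 0. Where only some libraries of a group were at 0, the log2 change could exceed the fold of the means. For Ccna2 it was -2.42 in graft BM-MSCs against BM-MSCs, although the graft mean (56.4) was above that of BM-MSCs (31.5). The fit took 13644 genes whose mean value reached 10 and was made with limma 3.58.1 (R 4.3.3, 1 mean per group, 10 libraries, trended empirical Bayes, two-sided). P-values measure the spread between these libraries. For a gene at 0 in every P-SSC and graft library, only the BM-MSC libraries and the moderated variance contribute to that spread. Its SE could then be small, as for Mki67 (0.95 in P-SSCs against BM-MSCs) beside Ccnb1 (2.08). A small adjusted p of such a gene thus rests partly on its zeros. Alternatives were edgeR 4.0.16, DESeq2 1.42.0, pseudocounts of 0.1 and 5, no filter or a minimum mean of 100, quantile normalization, 2-group fits, GC as a covariate or corrected by loess, leaving out each library and a replicate block. The tests were also run on simulated counts with the same dispersion for all genes and no added zeros. That check does not cover genes at 0 in some libraries of a group and high in others. Counting intervals and floors cover counting error only. Coordinates, exon length and GC content are from GENCODE M21 (GRCm38), matched by identifier for 15052 genes.

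The genes and lists were chosen with earlier results of these data known. Statistics are given for a fixed set of 11 genes of the 40 and, per comparison, for those at an adjusted p under 0.05 (the 6 largest drops where over 12), and for up to 3 genes of each other list. T and NK cell, megakaryocyte, endothelial, osteoclast and periosteal marker lists were computed too.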

Additional observations from a re-analysis of the deposited data

Results flagged for a closer look

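In the group of 4 graft libraries, 1 library stood apart from the other 3 for 11 of the 29 measures that could be examined (28 mitotic genes and their sum), by Dixon's ratio of gap to range at its 95% critical value. Chance flags about 1 in 20 groups, and 8 of the 11 are genes at 0 in the other 3 libraries, which gives the highest possible ratio whatever the value. In graft BM-MSC 2 these were Top2a (589) and Aurka (539). In graft BM-MSC 3 they were Ccna2 (226), Cdk1 (246) and Kif23 (5.04). In graft BM-MSC 1 it was Tpx2 (148). In graft BM-MSC 4 they were Kif20a (199), Cenpe (88.0), Incenp (181), Ncapg (134) and Ckap2l (62.1). The summed level of the 40 genes did not stand apart in any graft library. The share of tested genes at 0 in graft BM-MSC 1 to 4 was 21.0%, 32.8%, 24.5% and 16.9%, and the part of such zeros in these values was not tested.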

How the results depend on the processing

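The number of mitotic genes called lower in P-SSCs than in BM-MSCs (17) was 10 with a pseudocount of 0.1, 8 with a mean of at least 100 (21 genes tested), 8 with GC behaviour as a covariate and 2 in edgeR, and 6 to 22 when 1 library was left out. Against BM-MSCs, the graft count (11) was 3 with a mean of at least 100, 1 with the GC covariate and 1 in edgeR, and 9 to 15 without 1 library. Between graft BM-MSCs and P-SSCs, where limma called 0, it was 1 with a pseudocount of 0.1, with quantile normalization, with the GC covariate and with GC correction, 2 in edgeR and 12 in DESeq2, and 0 to 2 without 1 library. The cause of these differences was not tested. The remaining alternatives of these counts stayed within 1.5 times. Counted only among genes whose mean outside BM-MSCs reaches 10, a choice made after seeing the data, 7, 1 and 0 genes were called.

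With the replicate number of the titles as a block, 0 mitotic genes were called in each comparison, and of all tested genes 54, 3 and 269 in place of 1248, 1046 and 2464. Libraries with identical numbers did not deviate together (correlations of -0.019 to 0.03). BM-MSC 2+4 shares a number with P-SSC 2+5 (0.081) and with P-SSC 4 (-0.067). The block gave each pooled library a level of its own, so whether pooled libraries share mice with others was not tested.

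Of the 21 named genes, those called kept their direction in all alternatives run. Among changes that had not passed, the direction turned in graft BM-MSCs against P-SSCs for Top2a (-0.35) and Cdk1 (-0.10) with the block, Plk1 with quantile normalization (1.11) or GC correction (0.65), Birc5 with the GC covariate (-0.25), and Smc4 in edgeR (0.52), DESeq2 (0.40) and with the block (0.57). Without 1 library, Birc5 ranged from -0.91 to 1.74, Cdk1 from -0.51 to 2.45 and Smc4 from -1.83 to 0.83, and against BM-MSCs Smc4 ranged from -2.65 to 0.012. Quantile normalization and GC correction moved the median of all genes in graft BM-MSCs against BM-MSCs from -0.53 to -0.17 and 0.24. Scaling by library totals in place of size factors left the order of the 3 groups' summed levels as it was.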
